A study of Rattus norvegicus with 23 samples.

Results

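The baseline transcriptome described here is that of whole lung pieces from rats that breathed filtered air, and it rests on the 7 libraries with treatment Air out of 22 libraries with values in the series. They come from Rat 1 to Rat 7, called replicates 1 to 7, and all are males. Strain and age were not given in the sources used here. In the study, 24 rats were randomized by weight to filtered air, low or high eucalyptus smoke, with 8 planned in each group, over 2 weeks with 4 exposure days, a break of 3 days and 3 further exposure days. The labels list 23 samples, and the sample without values here is labelled high smoke. Their protocol says that 1 air sample was lost to poor quality, and how the 2 statements relate was not resolved. RNA came from about 35 mg of frozen tissue per sample whose RNA integrity number was 9.0 or more. No smoke library enters any value below.

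The alveolar wall is built from flat type 1 cells, which form the gas exchange surface, and cuboidal type 2 cells, which make surfactant, the lipid and protein film that keeps alveoli open. A dense capillary bed lies against this epithelium, and the conducting airways are lined by secretory club cells and ciliated cells. Because a whole piece was homogenized, a higher value of a marker can come from more cells of a type or from more RNA per cell, and these cannot be told apart.

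Values are normalized counts, that is gene counts divided by 1 size factor per library, and they are not corrected for transcript length, so they are compared between libraries and not between genes unless stated. The spread of a gene is the standard deviation of log2(value + 1) over the 7 libraries. The libraries hold the equivalent of 8484445 to 11640079 reads. Of 19249 genes in the table, 14377 had a mean of at least 10, and pairwise Pearson correlations across these genes were 0.966 to 0.984 (genes are not independent replicates). Replicates 3 and 5 stood apart from the rest. On the first principal component, with 26.6% of the variance, replicate 3 scored 46.2 and every other library at most 5.201, and on the second, with 22.4%, replicate 5 scored 38.8 and the next highest 10.1. For several genes and lists whose spread rests on either library, the spread is therefore also given without that library.

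The library labels were checked against tissue markers. Surfactant protein C (Sftpc, chr15:52211544-52214616 in rn6), the marker of type 2 cells, had 65040.1 ± 11069 (SD, n = 7) normalized counts. Ager, the receptor for advanced glycation end products that marks type 1 cells, had 10559 ± 2363 (SD, n = 7). Scgb1a1, the secretoglobin of club cells, had 6691 ± 1293 (SD, n = 7). Pecam1 was not analysed here, and the endothelial cadherin Cdh5, at 8003 ± 1213 (SD, n = 7), stood in for it. Markers of lung were thus present in all 7 libraries. The Y-linked genes Kdm5d and Eif2s3y, at 1195 to 1676 (median 1411) and 502 to 886 (median 727), were present in all 7 as the label male has it. Markers of liver, cartilage and fat were mostly low, with exceptions. Of 8 liver genes 1 had a mean of at least 10, as did 3 of 9 cartilage genes and 3 of 10 fat cell genes. Among the defining liver genes, Alb and Apoa1 had means of 4.604 and 1.94, but Serpina1 had 195. Among those of cartilage Acan had 0.408 and Chad 21.4, and among those of fat cells Adipoq had 2.04, Plin1 0.944 and Cidea 1.43.

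Counts were spread over many genes. The 10 leading genes held 5.65% ± 0.57 (SD, n = 7) of all counts, 963 genes held 50% and 5582 held 90%. Protein-coding genes held 98.0% ± 0.106 of counts. S100a6, a small calcium-binding protein, took the highest share, 0.982% ± 0.350. Its values were 80469, 81359, 67341, 80314, 169650.0, 82442 and 105368 in replicates 1 to 7. Replicate 5 was the highest and lay well above the other six, and without it the spread of S100a6 fell from 0.44 to 0.21.

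Several of the leading genes belong to the type 2 cell. Sftpc ranged 53126 to 83107 (median 63133), with replicate 5 highest and replicate 1 lowest. The collectin Sftpa1 ranged 54241 to 69919 (median 62289.5) and the phosphate carrier Slc34a2 38559 to 46779 (median 39032). Lysozyme (Lyz2), which macrophages and type 2 cells both make, ranged 54372 to 69747 (median 64223). Others mark the capillary wall. Epas1, the hypoxia-inducible transcription factor HIF-2 alpha, ranged 56105 to 83479.7 (median 68922), the adrenomedullin receptor chain Calcrl 34734 to 50119 (median 37755), and the adhesion receptor Adgrf5 25309 to 38129.6 (median 32479). Clic5, a chloride intracellular channel protein listed here with type 1 cells, ranged 22359.5 to 33204 (median 25904). The membrane skeleton gene Sptbn1 and the large scaffold Ahnak ranged 25680.3 to 48245 (median 40815) and 27589 to 44781 (median 38854), and replicate 3 was the lowest for both. Without replicate 3 the spread of Sptbn1 fell from 0.30 to 0.17.

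**Figure D1:**
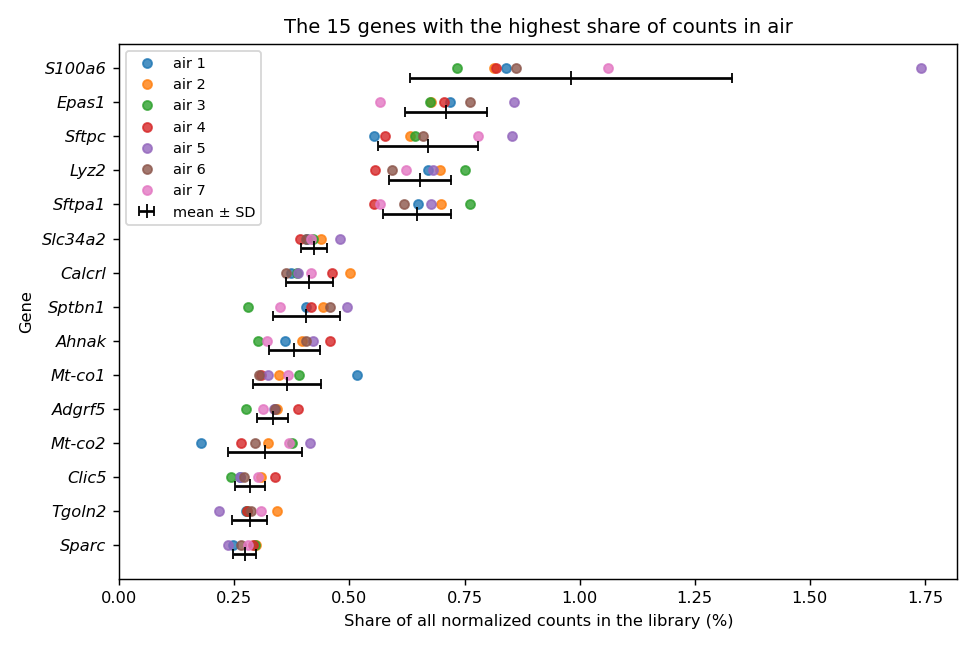
Share of all normalized counts in each library (x axis, %) for the 15 genes with the highest mean share (y axis), with 1 coloured point per air replicate and a black bar for mean ± SD (n = 7). S100a6 in replicate 5 lies at 1.74%, apart from its other libraries, and Mt-co1 and Mt-co2 place replicate 1 at opposite ends.

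Transcripts of the mitochondrial genome have no introns, so that these alone could be compared per kilobase. The 13 mitochondrial protein genes, all subunits of the respiratory chain or of ATP synthase, held 1.35% ± 0.143 of counts. Per kilobase, the mean was highest for Mt-co2 (44884 ± 11345, SD, n = 7) and Mt-co1 (22838 ± 4445), both of cytochrome oxidase, followed by Mt-cyb (13479 ± 2486). The range of Mt-co2 per kilobase, 24892 to 59033, overlapped that of Mt-co1, 18807 to 32028. The lowest mean was that of Mt-nd6, 2181 ± 229, whose range ended at 2499 and lay below that of its neighbour in this order, Mt-nd4, from 3554. In replicate 1 the normalized count of Mt-co1 was the highest of the 7, 49483 against 36275 in the next, while Mt-co2 and Mt-atp6 were the lowest, 17026 against 25974 and 4469 against 7197. Without replicate 1 the spread of Mt-co1 fell from 0.26 to 0.14 and that of Mt-co2 from 0.42 to 0.24.

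Between the 7 rats most genes varied little. The median spread was 0.232 on the log2 scale over the 14377 genes, and it was 0.418 for genes with means of 10 to 50 and 0.163 for means of 1000 to 10000. A spread of at least 0.5 was found in 1521 genes (10.6%), and of at least 1 in 177. In 941 genes (6.55%) the spread was no more than counting error alone would give. The median spread was 0.210 without replicate 3 and 0.224 without replicate 5.

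Alveolar and capillary markers had spreads near the median of all genes, 0.232, which includes many low genes. For genes with means of 1000 to 10000 the median was 0.163, and for means of at least 10000 it was 0.202. The lists were not matched for level. List medians were 0.18 over 13 type 2 genes and 0.25 over 14 type 1 genes. None of either list had a spread of 0.5 or more, against 10.6% of all genes but only 1.17% of those with means of 1000 to 10000. In type 2 cells the steadiest was Sftpd, a collectin of surfactant, at 8225 to 9809.7 (median 8565), and the least steady were Fasn, the fatty acid synthase (5523 to 9969 (median 7283)), and Lamp3, a lamellar body protein (6163 to 11608 (median 7729)). In type 1 cells the water channel Aqp5 ranged 6393 to 10098 (median 6971) and Ager 7763 to 14252 (median 10786). The spread of Ager, 0.32, was larger than that of 70.7% of genes with a mean of at least 10. Surfactant protein and lipid genes had a median of 0.22, with 1 of 21 at 0.5 or more. That gene was Scd, a stearoyl-CoA desaturase, with 17595, 11514, 3248, 9438, 7117, 10384 and 7544 in replicates 1 to 7. Replicate 1 was the highest and replicate 3 the lowest, and without replicate 3 its spread fell from 0.75 to 0.47.

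The 18 capillary and general endothelial genes had a median spread of 0.20, with 1 at 0.5 or more, Gpihbp1, which anchors lipoprotein lipase (21.1 to 88.7 (median 43.7)). Cdh5 ranged 5869 to 9839 (median 8081), the tyrosine kinase Tie1 2544 to 3712 (median 2943) and the apelin receptor Aplnr 6381 to 7473 (median 6802). Of 9 genes of aerocytes, the capillary cells specialised in gas exchange, the median was 0.21, with 1 at 0.5 or more. Ednrb, an endothelin receptor, ranged 1302 to 1997 (median 1640.0), and the ligand Apln 2048 to 4696 (median 3136). Among 16 genes that set vessel tone the median was 0.23, with 2 at 0.5 or more. Nos3, the endothelial nitric oxide synthase, and Edn1, the vasoconstrictor endothelin, ranged 168 to 377 (median 242) and 476 to 1143 (median 712), both with replicate 5 highest and replicate 7 lowest. Bmpr2, a BMP receptor, was lowest in replicate 3, 2086 against 3699 or more elsewhere, and its spread fell from 0.52 to 0.26 without it. Other vessels had larger medians, 0.29 over 11 arterial and venous genes and 0.34 over 7 lymphatic genes. Without replicate 7 the lymphatic median was 0.226.

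The medians of stromal lists were above that of all genes. They were 0.27 for 17 fibroblast genes, 0.24 for 11 pericyte genes and 0.35 for 12 smooth muscle genes, 2 of them at 0.5 or more. Col1a1, a fibrillar collagen chain, ranged 2601 to 5147 (median 3688), the receptor Pdgfrb of pericytes 1689 to 2153 (median 1956) and the smooth muscle actin Acta2 8751 to 14874 (median 11416). All 12 smooth muscle genes were above their own mean in replicate 6, and 7 of 12 were lowest in replicate 2. Macrophage genes of the alveolus and the interstitium had medians of 0.27 and 0.32, with 2 of 12 and 3 of 12 at 0.5 or more. The mannose receptor Mrc1 ranged 2579.6 to 3544 (median 2935) and the growth factor receptor Csf1r 1594 to 2187 (median 1921).

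**Figure D2:**
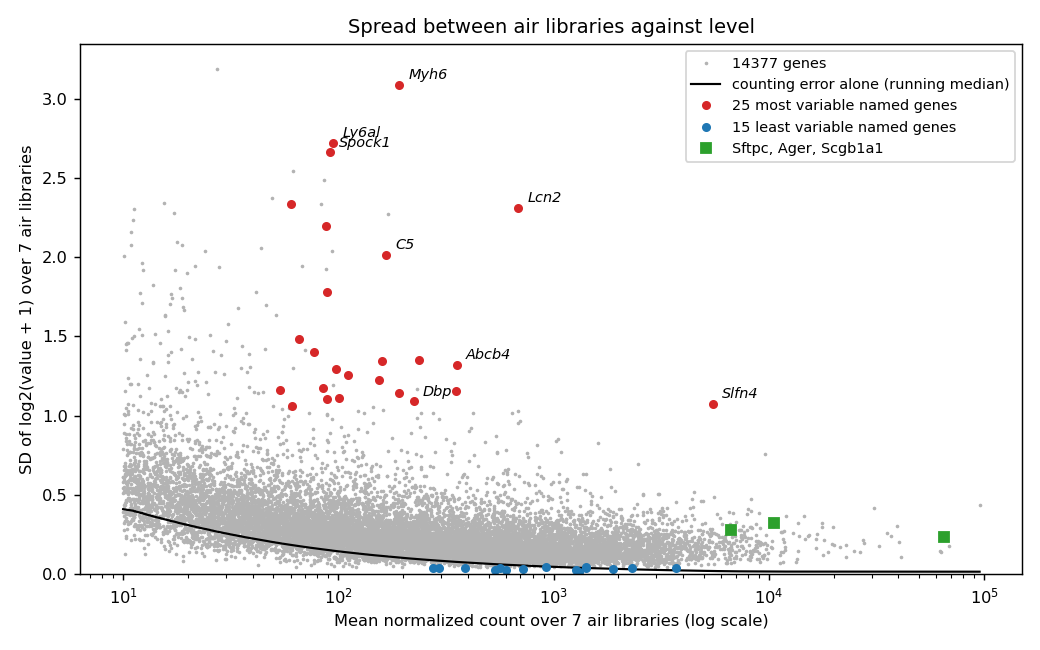
Spread of log2(value + 1) over the 7 air libraries (y axis) against mean normalized count (x axis, log scale) for 14377 genes in grey, with the running median of the spread from counting error alone as a black line. Red and blue points are the 25 most and 15 least variable named genes, and green squares are Sftpc, Ager and Scgb1a1, which lie near the bulk of genes.

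Markers of some other cell types differed more between the libraries. Spread was larger in low genes, with 34.3% at 0.5 or more for means of 10 to 50 and 7.58% for means of 50 to 200. The lists here and below were not matched for level. A score is the mean deviation of the members from their own means, on the log2 scale. Members with a mean of at least 10 enter the score of their list, so their own order of libraries is not separate from it. Where members highest or lowest in a library are counted, here, above and below, the share over all genes was not computed. Such counts therefore describe the list only. Airway genes were among the markers that differed more. The score of 9 club and secretory genes was 0.30 to 0.50 in replicates 1, 3, 6 and 7 and -0.54 to -0.51 in replicates 2, 4 and 5, and their median spread was 0.47. Cyp2f4, a club cell cytochrome P450, had 738, 267, 554, 239, 364, 875 and 779 in replicates 1 to 7, and these 2 groups of libraries did not overlap. Scgb3a2, a secretoglobin, had 1665, 964, 2016, 956, 1255, 1731 and 1829.7 in replicates 1 to 7, again without overlap. Scgb1a1 itself had 7055, 6191, 8748, 5608, 4902, 6625 and 7707 in replicates 1 to 7, where the sets were close, 6191 in replicate 2 against 6625 in replicate 6, but did not overlap. The score of the club and secretory list set these 2 groups, so a lack of overlap in its genes is partly built in. How many of all genes separate the same libraries was not computed. The 15 ciliated cell genes scored -0.46 in replicate 4 and -0.39 in replicate 2, and 0.02 to 0.26 elsewhere. None of the 15 was above its own mean in replicate 4, and 2 were in replicate 2. The ciliary dynein Dnah5 had 251, 275, 163, 159, 223, 337 and 264 in replicates 1 to 7. It departed from its list in replicate 2, where it was among the highest, and in replicate 3, where it was among the lowest.

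Mesothelium, the outer lining of the lung, had a median spread of 0.68 over 9 genes, and its score was lowest, -0.61 to -0.52, in replicates 1, 3 and 6 and highest in replicate 2, 0.70. Lrrn4, a leucine-rich repeat membrane protein, had 137, 543, 129.6, 383, 453, 189 and 379 in replicates 1 to 7. Upk3b, a uroplakin, had 52.7, 175, 49.7, 146, 158, 53.2 and 90.9 in replicates 1 to 7, and Wt1, the transcription factor of the mesothelium, had 21.4, 67.4, 19.4, 56.5, 60.8, 13.3 and 49.4 in replicates 1 to 7. For all 3 genes replicates 1, 3 and 6 were the lowest.

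Atrial-type cardiac muscle, which in rodents sheathes the pulmonary veins, was the most variable list, with a median spread of 1.06 over 14 genes (0.67 for members with a mean of at least 50). The score was -1.61 in replicate 2 and 1.46 in replicate 6. Replicate 6 was highest for 12 of 14 genes and replicate 2 lowest for 8. Myh6, the cardiac alpha myosin heavy chain, had 307, 0, 36.7, 36.6, 179, 592 and 190.0 in replicates 1 to 7. The value 0 in replicate 2 carries much of its spread, which is 3.09 with and 1.62 without it. Ryr2, the calcium release channel of the heart, had 136, 16.8, 14.0, 46.3, 47.8, 197 and 84.2 in replicates 1 to 7, and Actc1, cardiac actin, had 353, 92.1, 217, 145, 146, 526 and 297 in replicates 1 to 7. Replicate 6 was the highest for all 3.

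Immune lists differed by library. Replicate 5 was lowest for 11 of 13 B cell genes, 7 of 10 natural killer genes and 6 of 12 T cell genes. The share of all genes lowest in replicate 5, which stood apart, was not computed. Klrd1, a natural killer receptor, had 125, 85.3, 96.1, 109, 19.9, 101 and 103 in replicates 1 to 7. Replicate 5 lay below all other libraries. Without replicate 5 the median spread of B cell genes fell from 0.43 to 0.21 and that of natural killer genes from 0.50 to 0.33. Genes of dividing cells were also lowest in replicate 5 in 11 of 16 cases and highest in replicate 3 in 10, with the topoisomerase Top2a at 209, 316, 331, 231, 128, 194 and 191 in replicates 1 to 7. The score of 7 mast cell and basophil genes was highest in replicate 2, 0.91. Cpa3, the mast cell carboxypeptidase, had 72.5, 321, 103, 153, 66.8, 55.4 and 176 in replicates 1 to 7, and without replicate 2 the list's median spread fell from 0.72 to 0.46. The score of 8 neutrophil genes was highest in replicate 3, 1.03, where 4 of the 8 were highest and 7 were above their own mean. All 8 were above their own mean in replicate 6, where the score was 0.457. Lcn2, lipocalin 2, which epithelium can make too, had 895, 115, 2899, 31.5, 49.8, 406 and 409 in replicates 1 to 7, whereas S100a9, a neutrophil calprotectin subunit, ranged 29.6 to 97.2 (median 56.8).

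**Figure D3:**
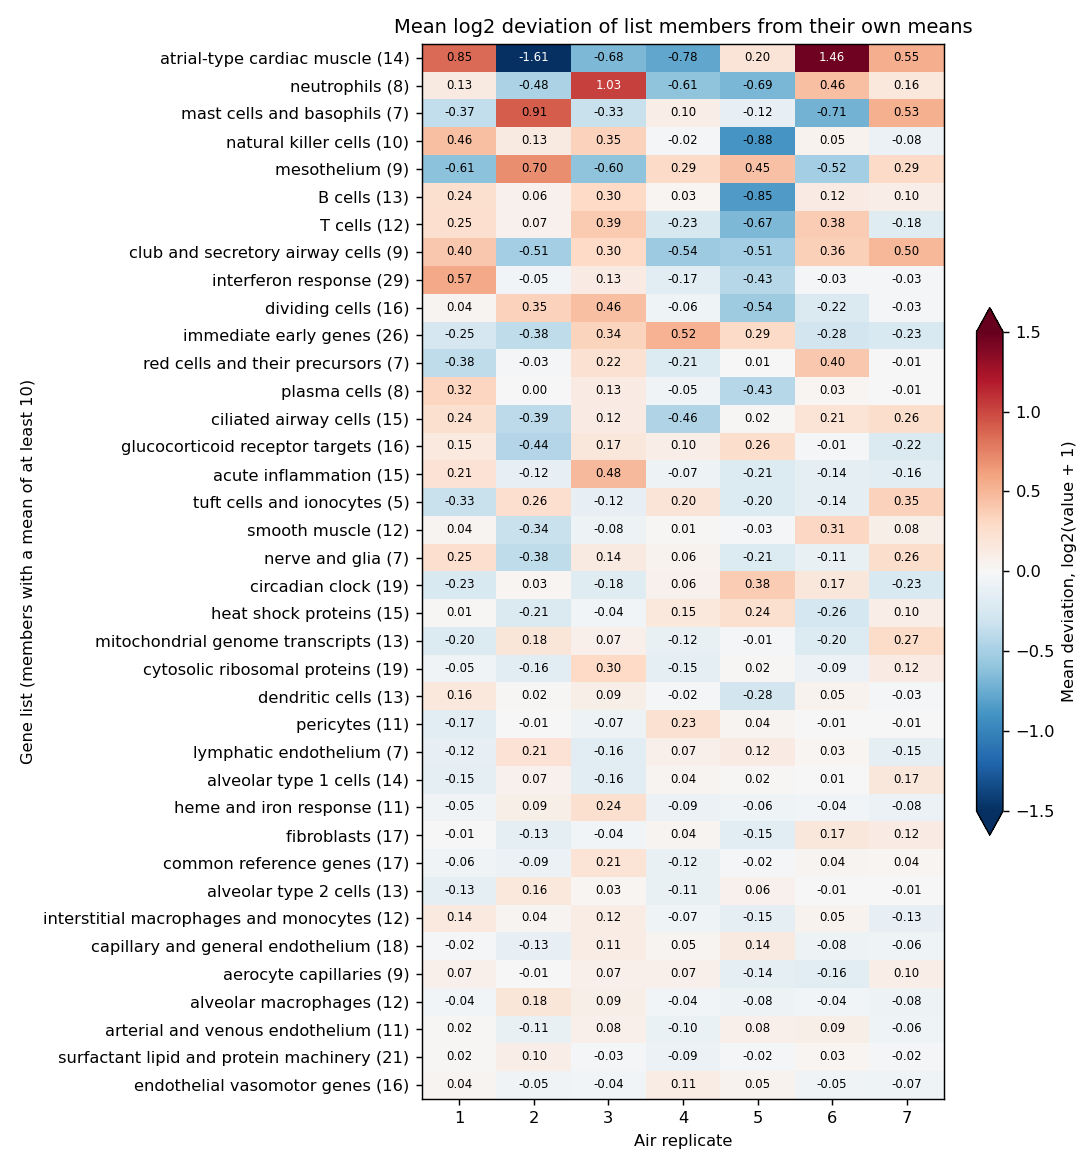
Score of each list (mean deviation of its members from their own means, log2, in colour and digits) in each air replicate (x axis), for lists with at least 5 members at a mean of at least 10, sorted by range (y axis). Cardiac muscle runs from -1.61 in replicate 2 to 1.46 in replicate 6, and alveolar and endothelial lists lie between -0.16 and 0.21.

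Interferon-stimulated genes, the antiviral response downstream of type I interferon, had a median spread of 0.49 over 29 members, and 13 had a spread of at least 0.5, which 10.6% of all genes had. Replicate 1 was highest for 21 of 29 and replicate 5 lowest for 19. The shares of all genes highest in replicate 1 and lowest in replicate 5 were not computed. Irf7, the transcription factor that amplifies interferon, had 393, 176, 197, 144, 105, 152 and 167 in replicates 1 to 7. Oas3, an oligoadenylate synthetase that senses double-stranded RNA, had 85.7, 49.5, 34.6, 42.6, 17.9, 68.8 and 32.6 in replicates 1 to 7, and Rsad2, viperin, had 943, 550.5, 509, 434, 284, 435 and 542 in replicates 1 to 7. Without replicate 1 the list's median was 0.36, and without replicate 5 it was 0.41. Ifit1 went the other way, with 4.200, 241, 14.3, 183, 133, 25.01 and 10.2 in replicates 1 to 7: replicate 1 was its lowest library. Members of the IFIT family are similar in sequence, and whether reads were shared between them was not tested. Slfn4, a Schlafen family member, was highest in replicate 1 and lowest in replicate 5, with 13659, 4923, 5278, 3887, 1087, 5259 and 4571 in replicates 1 to 7. It was not on the list.

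For short motifs in promoters, 7 motifs were searched in 4 lists (interferon response, immediate early genes, circadian clock and surfactant), on both strands, in RefSeq windows of 250 bases before to 50 after each gene start (GRCr8). These were the core of the interferon-stimulated response element (GAAA, any 2 bases, then GAAA), the cyclic AMP response element TGACGTCA with its shorter form TGACG, the E-box CACGTG, the D-box TTATGTAA, the AP-1 site in either form, TGACTCA or TGAGTCA, and the CArG box. The promoters printed were picked because they hold the motif. The interferon element occurred in 13 of 18 interferon promoters found, and in 3.92% of all 33469 windows. It occurred in 1 of 18 immediate early, 1 of 15 clock and 1 of 15 surfactant promoters. List counts use the first window of each gene, while the shares of all, here and below, are over every window. Capitals mark the match, which stands as its reverse complement where the letters begin with TTTC. Irf7 lies at chr1:205799974-205800273 on the minus strand, Rsad2 at chr6:48788071-48788370 on the minus strand and Oas3 at chr12:41439482-41439781 on the plus strand.
Irf7: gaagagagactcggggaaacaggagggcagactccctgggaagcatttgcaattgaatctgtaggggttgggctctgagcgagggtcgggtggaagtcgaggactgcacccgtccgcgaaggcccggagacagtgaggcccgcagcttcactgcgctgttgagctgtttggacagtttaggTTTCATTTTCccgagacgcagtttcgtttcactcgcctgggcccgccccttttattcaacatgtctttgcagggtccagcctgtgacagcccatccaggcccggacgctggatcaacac
Rsad2: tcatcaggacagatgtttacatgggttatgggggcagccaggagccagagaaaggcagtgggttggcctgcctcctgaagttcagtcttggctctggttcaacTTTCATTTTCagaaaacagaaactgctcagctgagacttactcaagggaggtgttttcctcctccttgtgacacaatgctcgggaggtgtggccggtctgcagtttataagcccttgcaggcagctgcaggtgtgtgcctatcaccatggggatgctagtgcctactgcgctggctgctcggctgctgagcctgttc
Oas3: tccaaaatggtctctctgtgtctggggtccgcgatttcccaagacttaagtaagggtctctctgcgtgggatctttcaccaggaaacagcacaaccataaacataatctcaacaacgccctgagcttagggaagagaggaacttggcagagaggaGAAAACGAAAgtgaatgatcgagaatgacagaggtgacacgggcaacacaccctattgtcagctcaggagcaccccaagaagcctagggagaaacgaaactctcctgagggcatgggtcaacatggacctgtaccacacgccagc

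Immediate early genes, which are transcribed within minutes of a stimulus, had a median spread of 0.41 over 26 members. The score was 0.29 to 0.52 in replicates 3, 4 and 5 and -0.38 to -0.23 in the other four. The transcription factor Fos had 68.4, 45.3, 198, 364, 285, 53.2 and 73.0 in replicates 1 to 7, Egr1, a zinc finger factor, had 540.3, 462, 1599, 1193, 968, 526 and 725 in replicates 1 to 7, and Dusp1, a MAP kinase phosphatase, had 1573, 1202, 3497, 4132, 3332, 1524 and 2041 in replicates 1 to 7. Replicates 3, 4 and 5 were the highest for each, without overlap. These genes enter the score that set those libraries apart, so this is partly built in. How many of all genes separate the same libraries was not computed. Ier2 had 235, 208, 513, 387, 472, 272 and 285 in replicates 1 to 7, with the same libraries highest.

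TGACGTCA, the cyclic AMP response element, occurred in 4 of 18 immediate early promoters (Ier2, Dusp1, Btg2 and Maff), and in 1.83% of all, but in none of the interferon, clock or surfactant promoters found. The CArG box occurred in 4 of 18 (Egr1, Egr2, Zfp36 and Klf6), and in 1.64% of all, with 1 match in the other lists, in the surfactant list's Nkx2-1. TGACG occurred in 13 of 18 immediate early, 6 of 18 interferon, 4 of 15 clock and 5 of 15 surfactant promoters, and in 21.2% of all. TGACTCA or TGAGTCA occurred in 0 of 18 immediate early, 3 of 18 interferon, 0 of 15 clock and 1 of 15 surfactant promoters, and in 4.63% of all. Dusp1 lies at chr10:17184603-17184902 on the plus strand and Ier2 at chr19:40399123-40399422 on the plus strand, with TGACGTCA in capitals.
Dusp1: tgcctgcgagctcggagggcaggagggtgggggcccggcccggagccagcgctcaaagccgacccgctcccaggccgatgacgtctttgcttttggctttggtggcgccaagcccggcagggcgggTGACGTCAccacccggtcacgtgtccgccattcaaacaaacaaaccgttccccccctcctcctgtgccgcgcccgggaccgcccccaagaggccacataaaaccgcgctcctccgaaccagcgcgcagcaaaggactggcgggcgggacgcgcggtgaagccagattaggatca
Ier2: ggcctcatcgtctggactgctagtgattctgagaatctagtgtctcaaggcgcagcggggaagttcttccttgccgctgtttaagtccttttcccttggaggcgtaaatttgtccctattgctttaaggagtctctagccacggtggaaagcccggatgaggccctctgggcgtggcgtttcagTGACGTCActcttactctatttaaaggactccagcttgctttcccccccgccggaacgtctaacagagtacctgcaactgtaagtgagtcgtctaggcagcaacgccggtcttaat

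Clock genes differed between the rats in opposite directions. Arntl (BMAL1), which with CLOCK or NPAS2 drives transcription in the clock, had 473, 205, 270.1, 266, 169, 179.6 and 373 in replicates 1 to 7. Dbp, a transcription factor driven by that pair, had 48.6, 259, 185, 185, 498, 295 and 98.8 in replicates 1 to 7. The order of the libraries by Dbp was the reverse of that by Arntl. Over the 7 libraries Pearson's r was -0.98 (exact permutation p = 0.000198, two-sided, Benjamini-Hochberg adjusted p = 0.00119 over 6 pairs). Spearman's rho was -1 (exact permutation p = 0.000397, the smallest that rho can give over 7 libraries, adjusted p = 0.00238). Without replicates 1 and 5, the libraries farthest from the median of Arntl, r was -0.99. The pairs were chosen with earlier results of these data known, which the p-values do not take into account. Npas2, the partner of Arntl, had 936, 550.5, 558, 555, 328, 434 and 992 in replicates 1 to 7, with replicates 1 and 7 highest and 5 lowest as for Arntl. Per2 and Nr1d1, repressors of the clock, had 389, 737, 394, 759, 1158, 806 and 392 in replicates 1 to 7, and 169, 459.8, 391, 383, 574, 525 and 267 in replicates 1 to 7. Both were lowest in replicate 1 and highest in replicate 5.

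CACGTG, the E-box that the BMAL1 pair binds, occurred in 4 of 15 clock promoters (Bhlhe40, Bhlhe41, Tef and Ciart), and in 6.42% of all, but also in 5 of 18 immediate early promoters, and in none of the interferon or surfactant promoters found. TTATGTAA, the D-box, occurred in 1 of 15 clock promoters (Per2) and 1 of 18 interferon promoters (Ifit3), in none of the other 2 lists, and in 0.893% of all. Ciart, a repressor of the clock with a low level here (1.12 to 13.3 (median 7.37)), holds 3 in 1 window at chr2:186112197-186112496 on the minus strand.
Ciart: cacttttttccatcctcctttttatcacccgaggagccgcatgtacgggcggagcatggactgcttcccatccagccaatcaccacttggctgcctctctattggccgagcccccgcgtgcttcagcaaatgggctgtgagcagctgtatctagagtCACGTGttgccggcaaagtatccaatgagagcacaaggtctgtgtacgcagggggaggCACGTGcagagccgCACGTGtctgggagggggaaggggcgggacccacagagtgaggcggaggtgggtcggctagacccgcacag

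**Figure D4:**
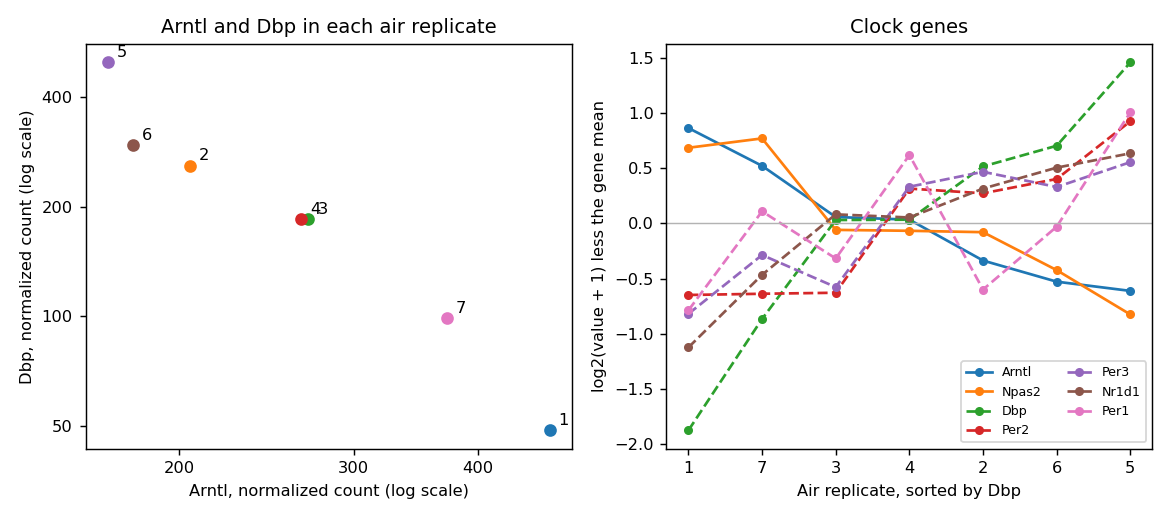
Left, Dbp against Arntl (normalized counts, both axes on a log scale) with 1 point per air replicate, labelled by its number. Right, log2(value + 1) less the gene's mean for 7 clock genes in the replicates sorted by Dbp. Arntl and Npas2 (solid) are highest in replicates 1 and 7, where Dbp and Nr1d1 (dashed) are lowest.

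For the comparison of Arntl with Dbp and of other markers, 6 pairs in all were computed, and for 2 of them a partner without values here was replaced (Dnah5 for Foxj1, Cdh5 for Pecam1). Sftpc and Ager, of type 2 and type 1 cells, had r = 0.62 and rho = 0.57 (exact permutation p = 0.145 and 0.200, adjusted 0.289 and 0.30), and r was 0.24 without the 2 libraries farthest from the median. Ager and Cdh5 had r = 0.39 and rho = 0.64 (exact permutation p = 0.406 and 0.139, adjusted 0.609 and 0.278), and r was -0.0059 without the 2 farthest. Scgb1a1 and Dnah5 had r = -0.033 and rho = 0.11 (exact permutation p = 0.943 and 0.840, adjusted 0.967 and 0.840), and r was 0.58 without the 2 farthest. Myl7, an atrial myosin light chain, and Scgb1a1 had r = 0.018 and rho = 0.11 (exact permutation p = 0.967 and 0.840, adjusted 0.967 and 0.840), and r was -0.081 without the 2 farthest. Fos and Egr1 had an adjusted exact permutation p of 0.0637 for r and 0.0369 for rho. No pooled r is given for that pair, because the libraries fall into 2 sets for Fos, with replicates 3, 4 and 5 above the rest.

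The 25 most variable named genes (mean of at least 50) had spreads of 1.06 to 3.09, and the next gene, Cyp2a1, had 1.05. Genes whose libraries fell into separate sets were looked for among all 19249 genes, by a rule chosen after the values were seen: a gap of at least 1.5 on the log2 scale between neighbouring libraries, and a highest value of at least 50. The rule took 64 genes, 15 of them among the 25 most variable. Of the 64, 20 genes had at least 2 libraries on each side, 35 had 1 low library, which was replicate 3 in 15, and 9 had 1 high library. Spock1, a secreted proteoglycan, had 1.65, 124, 112, 200.8, 92.7, 109 and 2.25 in replicates 1 to 7, so that replicates 1 and 7 were almost without it. C5, the complement component, had 469, 548, 23.8, 33.3, 20.9, 35.5 and 33.7 in replicates 1 to 7, with replicates 1 and 2 high. Abcb4, a phospholipid transporter, had 166, 147, 108, 137, 143, 1050.1 and 748 in replicates 1 to 7, with replicates 6 and 7 high. Tmem63c, a membrane protein, had 166, 24.2, 10.8, 227, 30.9, 14.4 and 149 in replicates 1 to 7, with replicates 1, 4 and 7 high. Dsg3, a desmosomal cadherin of stratified epithelium, had 0, 81.0, 0, 34.2, 0, 0 and 75.2 in replicates 1 to 7, and 4 libraries were at 0. Zbtb16, a glucocorticoid-induced transcription factor, had 516, 70.5, 63.7, 354, 237, 358 and 57.2 in replicates 1 to 7. Replicates 2, 3 and 7 were low, without overlap.

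In other genes 1 library decided the spread. Ly6al had 627, 9.54, 13.6, 1.15, 4.00, 2.22 and 6.77 in replicates 1 to 7, and its spread fell from 2.72 to 1.05 without replicate 1. Atp6v0a4, a proton pump subunit, had 4.12, 8.42, 3.24, 384, 7.97, 13.3 and 2.25 in replicates 1 to 7, and its spread fell from 2.34 to 0.81 without replicate 4. Replicate 4 was also apart for Cyp2b2, a cytochrome P450 with close paralogs, so that its value is uncertain, at 417 against at most 59.9, and its spread fell from 1.30 to 0.46. Hmox1, the heme oxygenase, had 1395 in replicate 3 against 164 to 410.5 elsewhere, and its spread fell from 1.02 to 0.44. Retnla, a resistin-like protein, was lowest in replicate 6, 15.0 against at least 68.8.

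**Figure D5:**
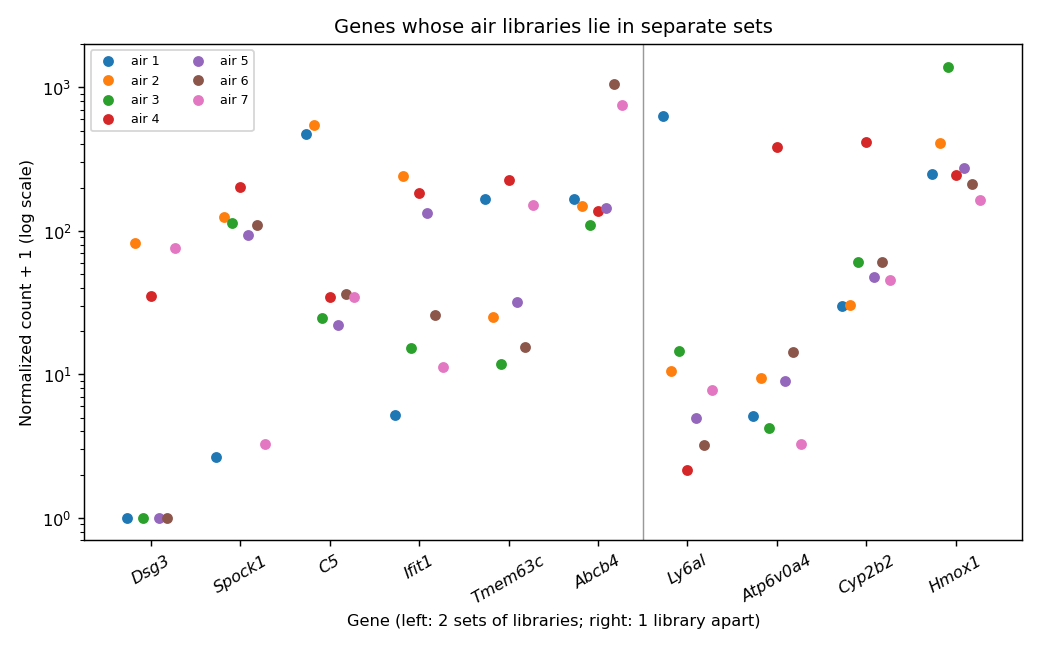
Normalized count + 1 (y axis, log scale) of 10 genes chosen for their gaps (x axis), with 1 coloured point per air replicate. Left of the line the libraries form 2 sets, such as Spock1 with replicates 1 and 7 apart, and right of it 1 library lies apart, such as Ly6al in replicate 1.

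The 15 least variable named genes had spreads of 0.016 to 0.043, and in 12 of them the spread was no more than counting error alone. Gspt1, a translation termination factor, ranged 1290.4 to 1332 (median 1322). Ppp2cb, a catalytic subunit of protein phosphatase 2A, ranged 3551 to 3819.7 (median 3719). When libraries were scaled to the same total, 2 of the 15 stayed on the list, so the ranking among such steady genes depends on the scaling. Among 17 genes often used as references the median spread was 0.19 and none reached 0.5. Ywhaz, a 14-3-3 protein, ranged 3495 to 4043 (median 3818), and beta actin (Actb) 13486 to 21261 (median 17229). Replicate 3 was the highest for Actb and had the highest score of these 17 genes, 0.206.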

How the data were processed

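RNA-seq of whole lung pieces from 7 air-breathing rats was analysed; smoke libraries entered no value. Per the submitters' processing notes, reads were aligned with STAR 2.7.3a to rn6, and Partek and DESeq2 are named without a role. The authors deposited 1 table of signal values, in which each library's gene counts are scaled by its own size factor. Only 81.0% to 82.2% of values under 200 reads lay within 0.02 of whole reads, so whole reads were not recovered and no count model was run. Read equivalents are library totals divided by the value of 1 read.

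Values were transformed to log2(value + 1), which shrinks differences of low genes, and spreads were computed for genes with a mean of at least 10 (python 3.11.15, numpy 2.4.6, pandas 2.3.3, scipy 1.17.1). Replicate numbers were given in label order, and in the sources used here only the rat numbers tell the animals apart. Steps were tested on simulated data.

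The air group, the 49 gene lists, the pairs and the naming rule were chosen with earlier results of these data known. The rule named the 15 genes with the highest share of counts, the 25 most and 15 least variable genes with a mean of at least 50 and a symbol that is not a clone or locus name, and the defining, highest, most and least variable members of each list. Its part on levels per kilobase could not be applied, since no exon lengths were used here. Of 681 listed genes, 606 were found by symbol and 7 by another symbol, and 68 were not analysed here. Values of some named genes are not reported here. Coordinates are 1-based.

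The 6 pairs were tested by exact two-sided permutation, adjusted over all 6. A rule for leaving out pairs whose libraries form clusters was chosen after all 6 correlations had been seen, and 2 versions were tried: a gap of 40% of the range dropped 3 pairs, and a gap of 1 on the log2 scale dropped 1 and was kept. Promoter motifs, the promoters printed and the rule for separate sets of libraries were also chosen after values were seen. Alternatives were another scaling, other pseudocounts, filters and measures of spread, and leaving out each library.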

Additional observations from a re-analysis of the deposited data

Results flagged for a closer look

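Among 274 named genes and 38 list scores, 20 (6.41%) had 1 library far from the other six by Dixon's criterion for outliers, against 836 (7.40%) of all 11301 genes with a mean of at least 50. Chance alone gives about 1 in 20, but 4 of the 20 are among the 25 most variable genes and others are the most variable of their list, so they were partly picked for their spread. Replicate 5 was the library apart in 8 of the 20, each time as the lowest. Over all 11301 genes it was the low library in 78 and the high library in 70. These were the scores of B cells (-0.849, against 0.031 in the next library), natural killer cells (-0.883 against -0.084) and dendritic cells (-0.276 against -0.03), and 5 lymphocyte genes. The normalized counts in replicate 5 and in the next library were 34.9 and 97.6 for Cd79b, 11.0 and 35.2 for Ms4a1, 19.9 and 85.3 for Klrd1, 26.9 and 61.0 for Ncr1, and 5.98 and 22.5 for Cd28. Genes and scores of 1 library are not independent of each other.

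Replicate 1 was apart in 5. It was highest for Ly6al (627 against 13.6), Hsp90aa1 (12871 against 10566), Itga2b (124 against 87.5) and Mt-co1 (49483 against 36275), and lowest for Mt-atp6 (4469 against 7197). Replicate 3 was highest for Hmox1 (1395 against 410.5) and lowest for Ccnt1 (9.91 against 49.7). Replicate 4 was highest for Atp6v0a4 (384 against 13.3) and Cyp2b2 (417 against 59.9). Replicate 7 was highest for Fkbp11 (5054 against 4097) and lowest for Mmrn1 (96.5 against 173). Replicate 6 was highest for Cd4 (294 against 176). Over all 11301 genes replicate 3 was the low library in 324 and the high library in 114.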

How the results depend on the processing

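No paired analysis was possible because there is 1 group and its replicate numbers are only names. The correlation of Arntl with Dbp kept its sign and stayed past the threshold in every alternative run, with r from -0.99 to -0.96 when each library was left out, and the other 4 correlations recomputed stayed short of it: -0.335 to 0.514 for Scgb1a1 with Dnah5, 0.015 to 0.831 for Ager with Cdh5 (0.831 without replicate 7), 0.334 to 0.791 for Sftpc with Ager and -0.167 to 0.247 for Myl7 with Scgb1a1. Fos with Egr1 was not recomputed, since its libraries form 2 sets. The median spread was 0.277 with a minimum mean of 1 and 0.203 with 50. Genes with a spread of at least 0.5 numbered 998 with a pseudocount of 5, 4495 with a minimum mean of 1 and 466 with 50. Of the 25 most variable genes, 8 stayed with a minimum mean of 10, 6 with 200, 13 by median absolute deviation, and 18 to 24 when a library was left out. Of the 15 least variable, 2 stayed with libraries scaled to the same total, 1 by median absolute deviation, 0 by spread less the running median at the same level, and 6 to 10 when a library was left out. The cause was not tested. The spread of 85 of 312 named genes moved over 1.5 times when 1 library was left out, as did the median spread of 5 of 49 lists. These were B cells, natural killer cells and thymus and lymphoid tissue without replicate 5, mast cells without replicate 2 and lymphatic endothelium without replicate 7. Depth limits genes with means of 10 to 50 most, where 502 of 3076 had a spread no larger than counting error.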

Other observations

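Small nucleolar RNAs, which guide the modification of ribosomal RNA, varied more than protein-coding genes: the median spread was 0.756 over 32 of them with a mean of at least 10, against 0.226 over 13645 protein-coding genes. These sets were not matched for level, and the median was 0.418 over all genes with means of 10 to 50. Medians were also large for 4 miscellaneous RNAs (0.702) and 2 small Cajal body RNAs (0.682). Small nucleolar RNAs held 0.0296% to 0.135% of counts by library. All 19 cytosolic ribosomal protein genes were above their own mean in replicate 3, with a score of 0.301, and 1 of 19 was in replicate 4. This was not particular to ribosomal genes. Of 17 common reference genes, 14 were above their own mean in replicate 3 (score 0.206) and 4 in replicate 4 (-0.116). Rpl3 ranged 2001 to 2798 (median 2224) and Rps6 1182 to 1733 (median 1455). The glucocorticoid target Tsc22d3, a leucine zipper protein, had 3463, 2597, 2833, 5413, 5614, 2813 and 3232 in replicates 1 to 7, with replicates 4 and 5 above the rest. Its fellow target Fkbp5, a chaperone of the glucocorticoid receptor, had 676, 359, 427, 439.6, 611, 462 and 368 in replicates 1 to 7, with replicates 1 and 5 highest. Hspa8, the constitutive heat shock cognate, is listed at a mean of 0.999, with all but replicate 3 near 0, and its level was not interpreted here.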
